A study of Mus musculus with 6 samples.

Results

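The genes described here are the solute carriers, or SLC genes, that were expressed in mTECs, a mouse renal tubular epithelial cell line. They were chosen by symbol and level. A gene was taken when its GENCODE M21 symbol started with Slc and a digit and its FPKM, a fragment count divided by gene length and library depth, averaged at least 1 over all 6 libraries. Of 372 such symbols among the 22442 genes of the table, 175 met this level, in 40 of 49 numbered families. The others were 196 genes under a mean FPKM of 1, of which 52 were at 0 in all 6 libraries, and 1 gene of family 7 that the rule set aside. The level was taken over both groups together, so the level limit did not use the difference between them. The rule itself was chosen with earlier results of these data known. All 175 members entered the test.

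SLC genes encode membrane proteins that move ions, sugars, amino acids, nucleotides, vitamins and metals across the plasma membrane and the membranes of organelles. Most work as exchangers, cotransporters or facilitators that draw on existing gradients and do not split ATP themselves. In the kidney tubule they recover filtered glucose, amino acids, phosphate and bicarbonate, and each tubule segment carries its own set. Family 25 holds mostly carriers of the inner mitochondrial membrane. Family 35 moves nucleotide sugars into the Golgi apparatus and endoplasmic reticulum, and families 30 and 39 export and import zinc.

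The study asked how silencing of Stat3, a transcription factor of cytokine signalling, changed the transcriptome of mTECs under LPS, a bacterial lipopolysaccharide. The cells of all 6 libraries received LPS at 20 μg/ml for 24 h, after transfection with a negative control (3 libraries labelled LPS) or with an RNA directed against Stat3 (3 libraries labelled LPSKD). No library without LPS was analysed here. The line is called immortalised in the paper, which lists an shRNA, whereas the sample labels speak of magnetic sorting and an siRNA. Nothing in the labels says that the replicates came from separate cultures, so p-values measure the spread between these libraries, which may be technical. The Stat3 transcript had 34.6, 31.4 and 35.2 FPKM in the libraries labelled LPS and 30.8, 35.2 and 34.3 FPKM in those labelled LPSKD. The groups overlapped, with a log2 fold change (LPSKD minus LPS, used throughout) of -0.01 (SE 0.07, adjusted p = 0.944 in limma). The labelled silencing was therefore not visible in the targeted transcript of these libraries. The paper reports a Stat3 knockdown in mTECs from separate measurements, by real-time PCR and western blot. Below, the groups are named only by their labels.

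The libraries held 24084827 to 25422171 fragments, as worked out from the FPKM values. The epithelial markers of a fixed list were all above 1 FPKM (10 of 10, summed level 4699.6 to 4883.7 FPKM in the libraries labelled LPS and 4702.9 to 4792.1 FPKM in those labelled LPSKD). The carriers that define single tubule segments were mostly missing. Of 30, 4 reached a mean of 1 FPKM and 9 were at 0 in all 6 libraries, among them Slc34a1 and Slc34a3 (apical phosphate uptake), Slc9a3 (apical sodium-hydrogen exchange) and Slc22a6 and Slc22a8 (organic anion uptake). The 4 were Slc4a4, the basolateral sodium bicarbonate cotransporter, at a mean of 30.4 FPKM, Slc27a2, a fatty acid transport protein, at 2.59 FPKM, Slc6a19, a neutral amino acid carrier of the brush border, at 1.83 FPKM, and Slc7a7, a cationic amino acid exchanger, at 1.42 FPKM. The labelled tubular epithelium thus showed the epithelial markers and lacked most of the segment carriers.

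The members ranged from abundant mitochondrial carriers to genes near the level limit. In mean FPKM over the 6 libraries, which is a level per length, 19 members reached 100 or more, 95 lay between 10 and 100 and 61 between 1 and 10, with a median of 16.3. The 10 most abundant took 45.7% to 46.3% of the summed FPKM of the members, depending on the library. These were Slc25a5 (795.8 FPKM) and Slc25a4 (364.6 FPKM), which exchange ADP for ATP across the inner mitochondrial membrane, Slc25a3 (763.4 FPKM), the mitochondrial phosphate carrier, Slc4a11 (472.6 FPKM), a borate family member that conducts protons, Slc38a2 (420.7 FPKM), a sodium-coupled carrier of small neutral amino acids, and Slc3a2 (334.8 FPKM), the CD98 heavy chain. They were followed by Slc9a3r1 (165.5 FPKM), the scaffold protein NHERF1, Slc7a5 (152.6 FPKM), the CD98 light chain LAT1, Slc25a24 (138.5 FPKM), a calcium-regulated ATP-Mg/phosphate carrier, and Slc2a1 (136.1 FPKM), the glucose transporter GLUT1. Shared sequence makes some of these levels uncertain. Of the coding stretches of 31 bases in Slc25a5, 85.3% also occur in other genes, and Slc39a7, a zinc carrier of the endoplasmic reticulum at 131.2 FPKM, lies inside the read-through gene Gm20427 and shares 97.9% of its stretches with it.

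**Figure D1:**
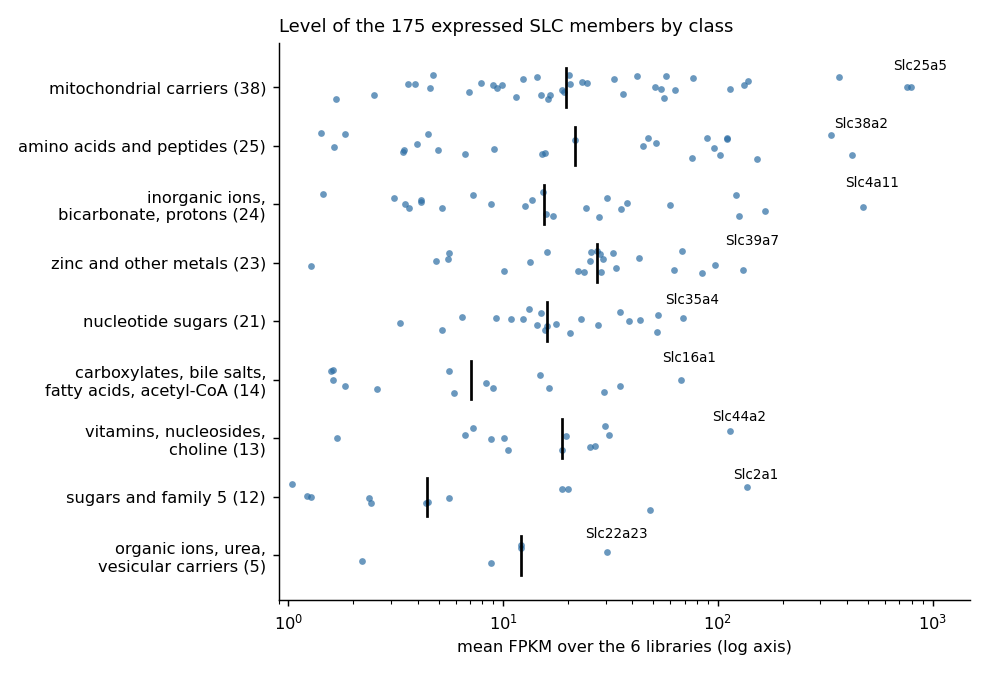
Mean FPKM over the 6 libraries (log axis) of each of the 175 members, grouped by functional class with the number of members in brackets; each point is a gene, the vertical bar is the class median, and the most abundant member of each class is named. Mitochondrial carriers hold the 2 highest levels, Slc25a5 at 795.8 and Slc25a3 at 763.4 FPKM.

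Classes followed the family number, so the class of mitochondrial carriers is the whole of family 25, wherever a member acts. Its 38 members made up 37.5% of the summed FPKM of all members. The 25 members of the amino acid and peptide families made up 21.2%, the 24 of inorganic ions 14.9% and the 23 of metals 10.1%. The 21 nucleotide sugar carriers held 6.15%, the 13 of vitamins, nucleosides and choline 3.82%, the 12 of sugars and family 5 3.02%, the 14 of carboxylates, bile salts, fatty acids and acetyl-CoA 2.47% and the 5 of organic ions 0.808%. The leading members of the smaller classes were Slc35a4 (68.6 FPKM), an orphan of the nucleotide sugar family, Slc16a1 (67.1 FPKM), the lactate carrier MCT1, Slc44a2 (114.1 FPKM), a choline carrier family member, and Slc22a23 (30.6 FPKM), an orphan of the organic ion family. No member came from families 13, 14, 18, 24, 28, 32, 34, 47 and 51, which include the renal sulphate and dicarboxylate, urea, concentrative nucleoside and apical phosphate carriers. Just inside the level limit stood Slc41a3 (1.28 FPKM), Slc2a9 (1.22 FPKM) and Slc5a8 (1.04 FPKM), and just outside it Slc26a6 (0.910 FPKM), Slc22a13b-ps (0.906 FPKM) and Slc7a3 (0.902 FPKM).

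Between the groups the members as a whole hardly moved. Their summed level was 8041.5 to 8227.7 FPKM in the libraries labelled LPS and 8114.2 to 8181.2 FPKM in those labelled LPSKD. In limma (Benjamini-Hochberg over all 11723 genes tested, threshold 0.05) 7 members passed, or 4.0%, against 3.23% of all genes tested. Of these 6 were higher in the libraries labelled LPSKD (3.43% of members, 1.57% of all genes) and 1 was lower (0.571% of members, 1.66% of all genes). The share of members that passed in either direction was near that of all genes. By direction the shares differed more, and with 7 calls this split rests on few genes. RNA from whole cultures cannot tell fewer cells of a kind from less RNA per cell.

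Without the correction, 37 members were under an unadjusted p of 0.05 (21.1%, against 17.6% of all genes), 18 higher and 19 lower (8.65% and 8.91% of all genes). The 2 groups did not overlap for 45 members (25.7%, against 23.8% of all genes), 22 of them higher and 23 lower in the libraries labelled LPSKD (10.6% and 13.2% of all genes). The fold changes of the members ran from -0.85 to 0.63 on the log2 scale. Of the 175, 90 were positive and 85 negative, with a median of 0.006 beside -0.008 over all genes tested. The median size without sign was 0.10, beside 0.09 over all genes. No member reached a log2 change of 1 in either direction and 5 reached 0.5, whereas the 95% interval lay within 0.5 of 0 for 136 members and within 1 for 169. Replicates of a group differed by a median coefficient of variation of 5.99%.

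**Figure D2:**
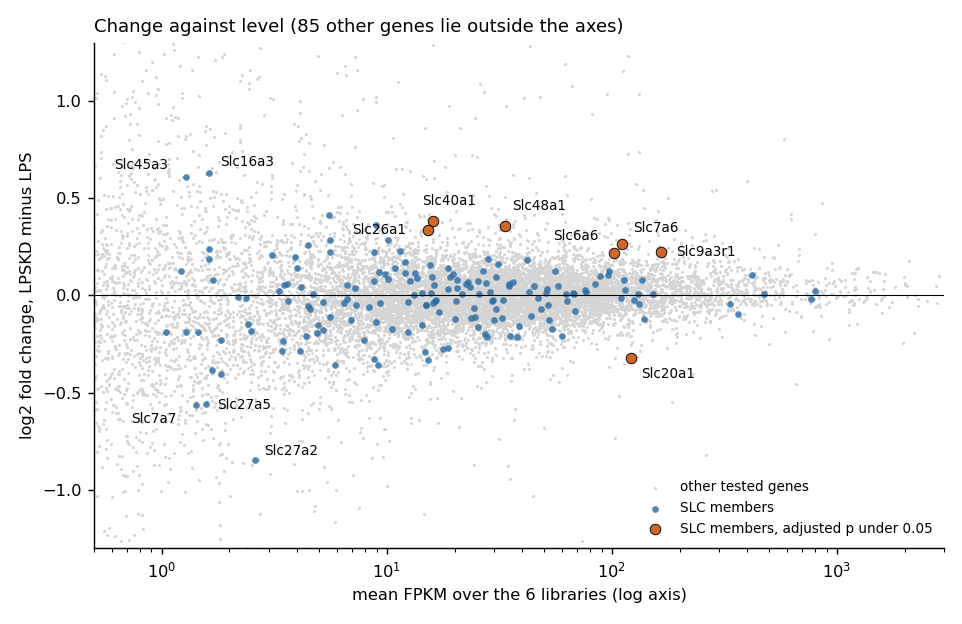
Log2 fold change (LPSKD minus LPS) against mean FPKM over the 6 libraries (log axis), with the other tested genes in grey, the members in blue and the 7 members under an adjusted p of 0.05 in orange; 85 tested genes lie outside the axes. The 7 lie between 15.3 and 165.5 FPKM and between -0.32 and 0.38, and the 5 largest changes among the rest belong to genes under 3 FPKM that did not pass.

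The member that fell was Slc20a1, the sodium-dependent phosphate transporter PiT-1 of the plasma membrane, which brings inorganic phosphate into most cell types. It had 134.2, 136.1 and 133.6 FPKM in the libraries labelled LPS and 105.2, 106.1 and 112.1 FPKM in those labelled LPSKD. The lowest library labelled LPS stood well above the highest labelled LPSKD, and the means were 134.6 ± 1.29 and 107.8 ± 3.77 (SD, n = 3 each). The level fell by 20.0%, a log2 fold change of -0.32 (SE 0.04, 95% interval -0.41 to -0.23, adjusted p = 0.00323), on 5221 to 6924 fragments a library. The gene lies at chr2:129198764-129211616 on the plus strand (GRCm38), and 315 bases of its coding sequence are overlapped by exons of 9830144P21Rik on the other strand. Whether the libraries kept strand is not given in the sources used here, so fragments of the pair cannot be told apart there.

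The sequence before the start site is shown for the 3 of the 7 members with the lowest adjusted p, Slc20a1, Slc7a6 and Slc26a1, because Stat3 is a DNA-binding factor. Slc26a1 stood only just before Slc9a3r1 in this order (adjusted p = 0.0288 and 0.0291). The RefSeq promoter table (GRCm38.p6) held an entry for 135 of the 175 members and for 4 of the 7, Slc9a3r1 being the other. Slc6a6, Slc48a1 and Slc40a1 had none. The 250 bases before the start nearest to the annotated gene end were searched on both strands for TTCNNNGAA, the core of the STAT site, and for CACGTG, the E-box, which was added after the sequences had been read. The sequences run 5′ to 3′ on the gene's strand, from chr2:129198523-129198772 (plus), chr8:106168604-106168853 (plus) and chr5:108675366-108675615 (minus), with matches in capitals. The RefSeq start of Slc26a1 lies inside the annotated gene, so that 204 of its 250 bases fall within the gene, against 9 for Slc20a1 and 0 for Slc7a6.
Slc20a1: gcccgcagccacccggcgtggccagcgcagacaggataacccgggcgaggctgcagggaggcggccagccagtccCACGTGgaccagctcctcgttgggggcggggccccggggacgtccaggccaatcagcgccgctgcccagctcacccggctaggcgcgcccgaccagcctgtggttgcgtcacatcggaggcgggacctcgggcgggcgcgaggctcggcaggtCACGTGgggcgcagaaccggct
Slc7a6: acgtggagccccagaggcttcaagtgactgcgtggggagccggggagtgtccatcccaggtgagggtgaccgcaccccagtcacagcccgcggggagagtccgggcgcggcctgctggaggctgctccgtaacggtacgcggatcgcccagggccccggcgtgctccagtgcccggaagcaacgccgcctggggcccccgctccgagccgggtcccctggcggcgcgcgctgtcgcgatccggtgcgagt
Slc26a1: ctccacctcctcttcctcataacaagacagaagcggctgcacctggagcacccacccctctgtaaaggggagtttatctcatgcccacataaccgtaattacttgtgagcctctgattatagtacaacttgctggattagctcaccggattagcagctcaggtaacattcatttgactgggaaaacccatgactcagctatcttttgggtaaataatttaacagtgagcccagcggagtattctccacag

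In these windows Slc20a1 held 2 E-boxes, starting 175 and 22 bases before the start site, and the other 3 genes none. None of the 4 held the STAT core. Of the 32851 promoters listed, 7.02% held the STAT core and 6.02% the E-box, and of the 189 entries of members 4.76% and 12.2%. The base composition differed, with 75.2% G and C in Slc20a1, 74.0% in Slc7a6 and 46.8% in Slc26a1. These matches describe letters in a window, and no binding was measured here.

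The other member of the family, Slc20a2 (PiT-2), was also lower in every library labelled LPSKD, although it missed the threshold. It had 42.5, 39.5 and 40.1 FPKM against 34, 34.9 and 36.3 FPKM, a log2 fold change of -0.21 (SE 0.05, adjusted p = 0.0685). The summed level of family 20 was 175.3 ± 1.51 FPKM in the libraries labelled LPS and 142.9 ± 4.86 FPKM in those labelled LPSKD (SD, n = 3). Neither of 2 further phosphate carriers passed. Slc25a3 stood at 767.9 ± 5.79 and 759.0 ± 27.7 FPKM (log2 -0.02, SE 0.04, adjusted p = 0.853), and Xpr1, the phosphate exporter, at 10.7 ± 0.894 and 9.81 ± 0.573 FPKM (log2 -0.13, SE 0.09, adjusted p = 0.518). Slc34a1 and Slc34a3 were listed at 0 throughout.

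Slc7a6, the light chain y+LAT2 that pairs with the CD98 heavy chain and exchanges cationic for neutral amino acids, was higher in the libraries labelled LPSKD. It had 102.2, 99.6 and 100.2 FPKM in those labelled LPS and 115.4, 122.5 and 124.8 FPKM in those labelled LPSKD. The groups were apart by more than their spread (100.7 ± 1.38 and 120.9 ± 4.91 FPKM), a rise of 20.0% with a log2 fold change of 0.26 (SE 0.04, 95% interval 0.17 to 0.36, adjusted p = 0.0120). The heavy chain Slc3a2 did not pass, at 336.6, 343.5 and 340.2 FPKM against 325.1, 334.2 and 329.2 FPKM, which were lower without overlap (log2 -0.05, SE 0.03, adjusted p = 0.483). The main light chain, Slc7a5, had nearly equal means of 152.3 ± 6.90 and 152.8 ± 4.16 FPKM, and its 95% interval of -0.09 to 0.10 leaves room for only a small change. Slc7a7, the related light chain y+LAT1, was low, at 1.97, 1.57 and 1.60 FPKM against 1.12, 0.976 and 1.28 FPKM, with a log2 fold change of -0.56 (SE 0.22, adjusted p = 0.236) in the other direction. The cationic amino acid carrier Slc7a1 (CAT1) had 110.6 ± 4.68 and 109.3 ± 0.996 FPKM (log2 -0.02, SE 0.04, adjusted p = 0.893). Slc7a6os, which is a neighbour of Slc7a6 on the chromosome and not a carrier, had 44.2 ± 2.91 and 45.7 ± 2.09 FPKM.

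The second amino acid member that passed was Slc6a6, the sodium- and chloride-dependent taurine carrier TauT, through which renal cells take up taurine as an osmolyte. It had 96.9, 90.6 and 96.2 FPKM in the libraries labelled LPS and 113.2, 105.9 and 111.2 FPKM in those labelled LPSKD. All 3 libraries of the second group were above all 3 of the first, with a rise of 16.4%, a log2 fold change of 0.22 (SE 0.04, 95% interval 0.12 to 0.32) and an adjusted p of 0.0365. Slc5a3, the sodium/myo-inositol carrier and another osmolyte transporter, was far less abundant, at 5.44, 3.82 and 6.32 FPKM against 5.28, 6.67 and 6.02 FPKM, with overlapping groups (log2 0.22, SE 0.19, adjusted p = 0.591). Among the other amino acid carriers Slc38a2 (SNAT2) had 418.5, 397.5 and 401.2 FPKM against 442.6, 427.1 and 437.4 FPKM, again without overlap (log2 0.10, SE 0.03, adjusted p = 0.165). Of the 25 members of this class 14 had a positive and 11 a negative log2 fold change, with a median of 0.01.

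Among carriers of inorganic ions, Slc26a1 (SAT-1), an anion exchanger that carries sulphate and oxalate at the basolateral membrane of the proximal tubule, was higher in the libraries labelled LPSKD. The values were 14.2, 13.1 and 13.3 FPKM in the libraries labelled LPS and 17.1, 17.1 and 17.2 FPKM in those labelled LPSKD. The second group was unusually tight (SD 0.0513 FPKM), and the rise was 26.3%, a log2 fold change of 0.33 (SE 0.06, 95% interval 0.19 to 0.48, adjusted p = 0.0288). The other 2 family members were lower in level and did not pass. Slc26a11 had 4.60 ± 1.21 and 3.67 ± 0.304 FPKM (adjusted p = 0.495), and Slc26a2, a sulphate carrier needed in cartilage, had 3.43 ± 0.213 and 3.57 ± 0.411 FPKM (adjusted p = 0.893).

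Slc9a3r1 carries an SLC symbol but encodes NHERF1, a scaffold with PDZ domains that holds transporters at the apical membrane and links them to ezrin. It had 159.7, 145.9 and 152.7 FPKM in the libraries labelled LPS and 178.0, 174.3 and 182.3 FPKM in those labelled LPSKD, which did not overlap. It rose by 16.6%, a log2 fold change of 0.22 (SE 0.04, 95% interval 0.13 to 0.32, adjusted p = 0.0291). Of the carriers that NHERF1 is best known to hold, Slc9a3 and Slc34a1 were listed at 0 in all 6 libraries. Ezr, the gene of ezrin, stood at 330.8 ± 7.47 and 327.4 ± 2.56 FPKM (adjusted p = 0.862). The related scaffold Slc9a3r2 had 6.18 FPKM in library 1 labelled LPS and 2.62 to 3.85 FPKM in the other 5.

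Of the 24 members of the ion class 10 had a positive and 14 a negative log2 fold change, with a median of -0.05. The 7 members of family 4 took in Slc4a1ap, which names a partner and is not a carrier. They also included Slc4a2, the anion exchanger AE2, which had 66.8, 62.4 and 64.0 FPKM against 55.9, 53.6 and 57.5 FPKM. The groups did not overlap, and the log2 fold change of -0.21 (SE 0.05) had an adjusted p of 0.0516. Of its coding sequence, 694 bases are overlapped by Fastk on the other strand. Slc4a4 had 31.3, 30.3 and 31.7 FPKM against 29.7, 28.5 and 30.6 FPKM (log2 -0.07, SE 0.05, adjusted p = 0.524). Slc4a11, the third most abundant member, had 471.7 ± 21.0 and 473.5 ± 12.2 FPKM, and the sign of its log2 fold change of 0.01 turned negative under quantile normalization. Slc9a8, a sodium-hydrogen exchanger of the Golgi apparatus, had 37.9 ± 2.73 and 32.7 ± 0.928 FPKM (log2 -0.21, SE 0.06, adjusted p = 0.127).

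The 2 metal carriers that passed handle haem and iron. Slc48a1 (HRG1) moves haem out of lysosomes and endosomes. It had 27.5, 31.9 and 28.8 FPKM in the libraries labelled LPS and 40.3, 36.9 and 35.7 FPKM in those labelled LPSKD, on 331 to 487 fragments a library. The groups did not overlap, and the level was higher by 28%, a log2 fold change of 0.36 (SE 0.07, 95% interval 0.19 to 0.52, adjusted p = 0.0372). Slc40a1 (ferroportin) is the iron exporter of the plasma membrane. It had 14.4, 12.9 and 14.4 FPKM in the libraries labelled LPS and 16.7, 18.7 and 18.9 FPKM in those labelled LPSKD, again without overlap. Its rise of 30.5% was the largest of the 7, with a log2 fold change of 0.38 (SE 0.08, 95% interval 0.20 to 0.56, adjusted p = 0.0388).

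**Figure D3:**
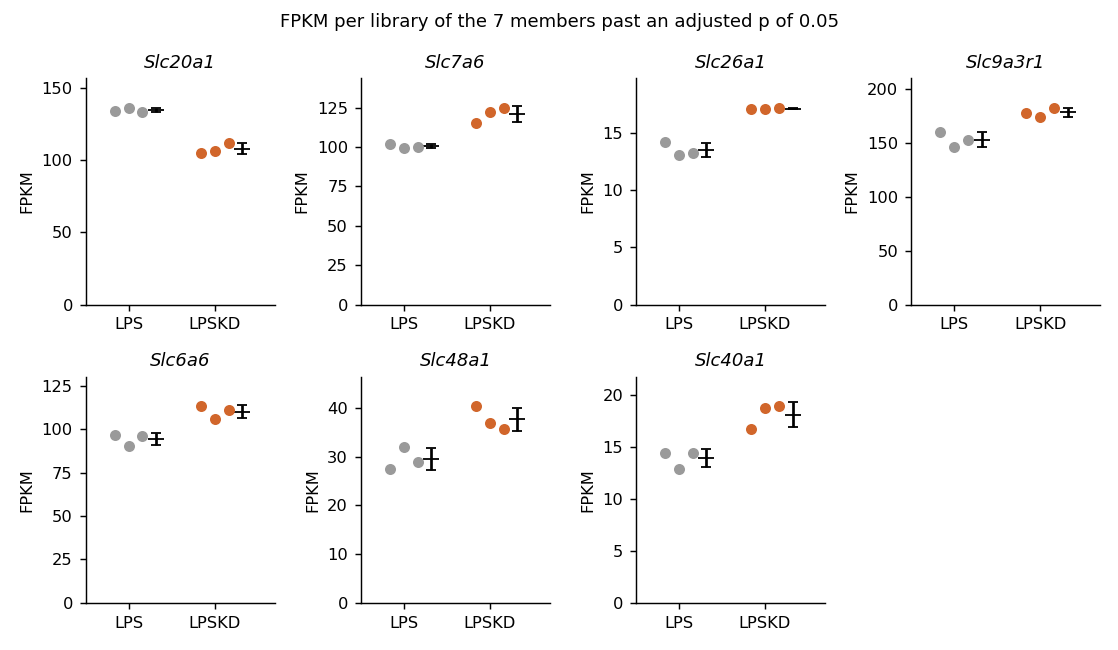
FPKM in each library (points) of the 7 members under an adjusted p of 0.05, for the libraries labelled LPS (grey, n = 3) and LPSKD (orange, n = 3), with the mean and SD of each group beside them and every axis starting at 0. Slc20a1 is lower and the other 6 are higher in the libraries labelled LPSKD, with changes of 16.4% to 30.5% in size.

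The other carriers of iron were chosen after their values were seen, and they did not pass. Slc11a2 (DMT1), which imports ferrous iron, had 43.9, 40.9 and 42.4 FPKM against 44, 42.3 and 42.6 FPKM (log2 0.02, SE 0.05, adjusted p = 0.882). Slc39a14 (ZIP14), an importer of zinc and of iron not bound to transferrin, had 24.6 ± 0.750 and 22.7 ± 1.20 FPKM (log2 -0.12, SE 0.06, adjusted p = 0.358). The mitochondrial iron importers Slc25a37 (mitoferrin-1) and Slc25a28 (mitoferrin-2) had log2 fold changes of 0.01 and -0.02 (SE 0.05 each, adjusted p = 0.940 and 0.840). Their 95% intervals, -0.09 to 0.11 and -0.13 to 0.08, set narrow limits on any change. Flvcr1, a haem exporter under another symbol, had 9.58 ± 0.462 and 8.99 ± 0.918 FPKM (adjusted p = 0.686).

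Zinc carriers took most of the metal class, with 10 members of family 39 and 6 of family 30. None of the 16 passed in limma, beside 3.23% of all genes tested. Under an unadjusted p of 0.05 were 5 of family 39 and 1 of family 30, beside 17.6% of all genes tested, and voom on fragments called 0 of each, beside 5.10% of all genes. The summed level of family 39 was 396.6 ± 9.13 and 392.9 ± 7.46 FPKM, and that of family 30 was 229.2 ± 4.28 and 239.6 ± 6.75 FPKM. The largest log2 fold change of the class was that of Slc39a4 (ZIP4), the zinc importer of the gut, at 4.93, 4.63 and 4.65 FPKM against 6.98, 6.29 and 5.82 FPKM. These groups did not overlap, and the log2 fold change of 0.42 (SE 0.11) had an adjusted p of 0.0929. Slc39a3 (ZIP3) had 8.96, 8.66 and 9.55 FPKM against 11.8, 10.7 and 10.6 FPKM (log2 0.28, SE 0.08, adjusted p = 0.123). In the metal class as a whole 15 of 23 log2 fold changes were positive, with a median of 0.01.

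The 38 members of family 25 include some of the most deeply counted members. None of the 38 passed in limma, beside 3.23% of all genes tested, and none with voom on fragments, beside 5.10% of all genes. Their summed level was 3065.4 ± 13.4 FPKM in the libraries labelled LPS and 3041.5 ± 51.3 FPKM in those labelled LPSKD, and 19 log2 fold changes were positive and 19 negative. Slc25a5 had 778.0, 804.3 and 787.3 FPKM against 793.3, 819.1 and 792.6 FPKM (log2 0.02, 95% interval -0.05 to 0.09). Slc25a4 had 377.7, 380.5 and 371.4 FPKM against 361.1, 361.7 and 335.4 FPKM, which did not overlap, with a log2 fold change of -0.10 (SE 0.04, adjusted p = 0.247). Groups that did not overlap were found for 9 of the 38, 4 higher and 5 lower, beside 23.8% of all genes tested. Under an unadjusted p of 0.05 were 6, beside 17.6% of all genes, namely Slc25a4, Slc25a24 and Slc25a48 with negative and Slc25a10 (dicarboxylate carrier), Slc25a15 (ornithine carrier) and Slc25a45 with positive log2 fold changes.

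No member of the nucleotide sugar, sugar, carboxylate, vitamin or organic ion classes passed in limma either, beside 3.23% of all genes tested. Under an unadjusted p of 0.05 were 1 of 21, 0 of 12, 2 of 14, 3 of 13 and 1 of 5 in this order, beside 17.6% of all genes tested. Voom called 0, 0, 1, 1 and 0 of them, beside 5.10% of all genes. In the classes that held limma calls, the unadjusted counts were 7 of 25 for amino acids, 8 of 24 for ions and 9 of 23 for metals. There voom called 2, 7 and 1. The summed level of family 35 was 509.4 ± 9.12 and 492.4 ± 9.90 FPKM, with 9 positive and 12 negative log2 fold changes. In this family Slc35e3 came nearest to the threshold, at 20.2, 18.8 and 19.2 FPKM against 15.3, 16.1 and 16.8 FPKM (log2 -0.27, SE 0.06, adjusted p = 0.0648). The value is uncertain, since 83.2% of its coding stretches of 31 bases also occur in other genes. GLUT1 (Slc2a1) had 136.5, 131.0 and 129.7 FPKM against 140.2, 141.7 and 137.4 FPKM (log2 0.08, SE 0.04, adjusted p = 0.308). The lactate carrier Slc16a1 had 66.8 ± 0.311 and 67.4 ± 2.65 FPKM, with a log2 fold change of 0.01. Slc44a2 had 113.1 ± 3.55 and 115.2 ± 5.34 FPKM, and all 4 members of family 44 had a positive log2 fold change, from 0.03 to 0.22. Slc22a23 had 29.6 ± 1.96 and 31.6 ± 1.65 FPKM (log2 0.09, adjusted p = 0.518).

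**Figure D4:**
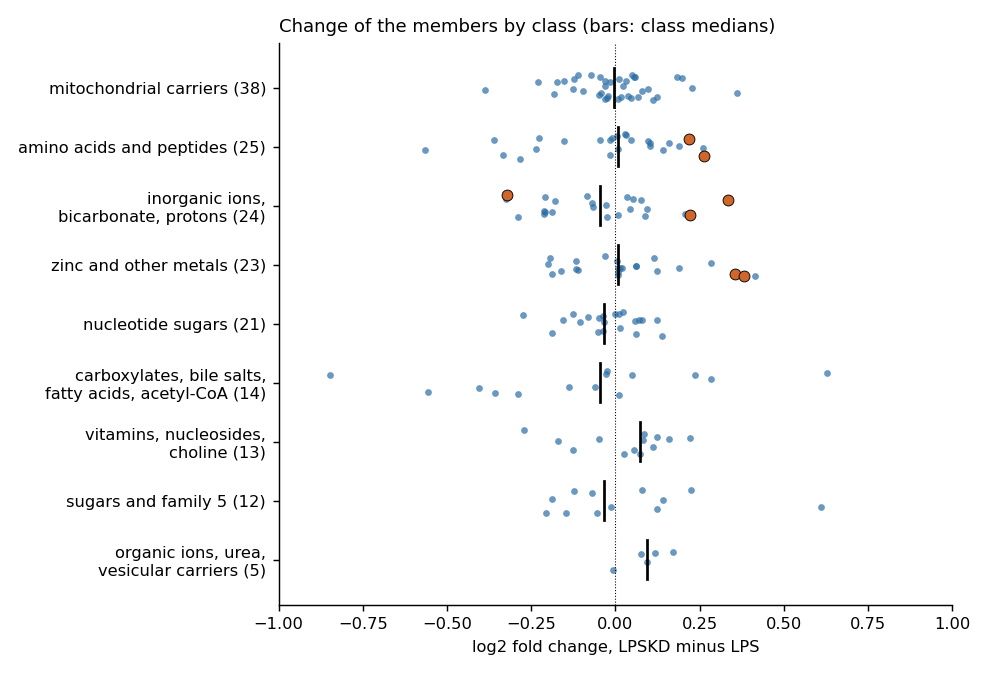
Log2 fold change (LPSKD minus LPS) of each of the 175 members by functional class, with the number of members in brackets; bars mark class medians and orange points the 7 members under an adjusted p of 0.05. Class medians lie between -0.05 and 0.09, and the 7 fall in the amino acid, ion and metal classes.

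The 5 largest fold changes among members that did not pass belonged to genes at low level. Slc27a2 had 1.46, 5.68 and 3.41 FPKM in the libraries labelled LPS and 1.97, 1.61 and 1.43 FPKM in those labelled LPSKD. Its libraries labelled LPS differed among themselves by more than the groups did, and the log2 fold change of -0.85 had an SE of 0.42 (adjusted p = 0.341). Without replicate 1 labelled LPS it was -1.36 (SE 0.26, adjusted p = 0.0381), so the omission of that library changed the call. A stretch of 419 coding bases of Slc27a2 is overlapped by Gm26697 on the other strand. Slc16a3, the lactate exporter MCT4, had 1.51, 1.42 and 0.870 FPKM against 1.73, 2.12 and 2.06 FPKM, without overlap (log2 0.63, SE 0.25, adjusted p = 0.244). Slc45a3, a sugar carrier family member, had a log2 fold change of 0.61 (SE 0.35, adjusted p = 0.408), and Slc27a5, a bile acid and fatty acid ligase, of -0.56 (SE 0.30, adjusted p = 0.378). The fifth was Slc7a7. Slc16a3 rested on 30 to 74 fragments a library, and the reason that its log2 fold change did not pass was not tested. Of the 175 members, 25 had under 100 fragments in at least 1 library.

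A further 6 members had an adjusted p of 0.05 to 0.1, of which 5 were lower and 1 was higher in the libraries labelled LPSKD. Beside Slc4a2, Slc20a2, Slc35e3 and Slc39a4 these were Slc27a1, a fatty acid transport protein, with 16, 16.4 and 16.5 FPKM against 14.1, 13.3 and 12.5 FPKM (log2 -0.29, SE 0.07, adjusted p = 0.0685), and Slc23a2, the vitamin C carrier SVCT2, with 21.8, 19.9 and 19.9 FPKM against 16.3, 16.3 and 18.3 FPKM (log2 -0.27, SE 0.07, adjusted p = 0.0975). When the recovered fragments were fitted with limma's voom, which weights each value by its count, the fit called 12 members (6.86%, against 5.10% of all genes). It split them into 5 higher and 7 lower (2.41% and 2.69% of all genes). It kept 6 of the 7 and lost Slc48a1 (adjusted p = 0.0531). The members it added were all lower, namely Slc4a2 (0.00744), Slc20a2 (0.0297), Slc27a1 (0.0327), Slc12a9 (0.0358), Slc12a4 (0.0385) and Slc23a2 (0.0449), with the voom adjusted p in brackets. Slc12a4, the potassium-chloride cotransporter KCC1, had 31.8, 28.1 and 29.8 FPKM against 26.6, 24.7 and 26 FPKM, and Slc12a9, an orphan of that family, 8.98, 10.2 and 10.0 FPKM against 8.15, 7.39 and 7.72 FPKM. In log2 FPKM they had an adjusted p of 0.126 and 0.106. The predominance of higher calls among the 7 was therefore not kept when the spread was modelled on fragments.

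The call for Slc20a1 held under all 16 alternative settings, with log2 fold changes of -0.35 to -0.30. The other 6 were nearer to the threshold. Slc7a6 passed in 9 of 10 alternatives with all 6 libraries and in 3 of 6 fits without 1 library, and Slc26a1 in 9 of 10 and 1 of 6. Slc9a3r1 and Slc48a1 passed in 6 of 10 and 1 of 6, Slc6a6 in 7 of 10 and 1 of 6, and Slc40a1 in 7 of 10 and in none of the 6 fits without 1 library, where its adjusted p was 0.0551 to 0.142. No sign of the 7 changed under any of the 16 settings.

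**Figure D5:**
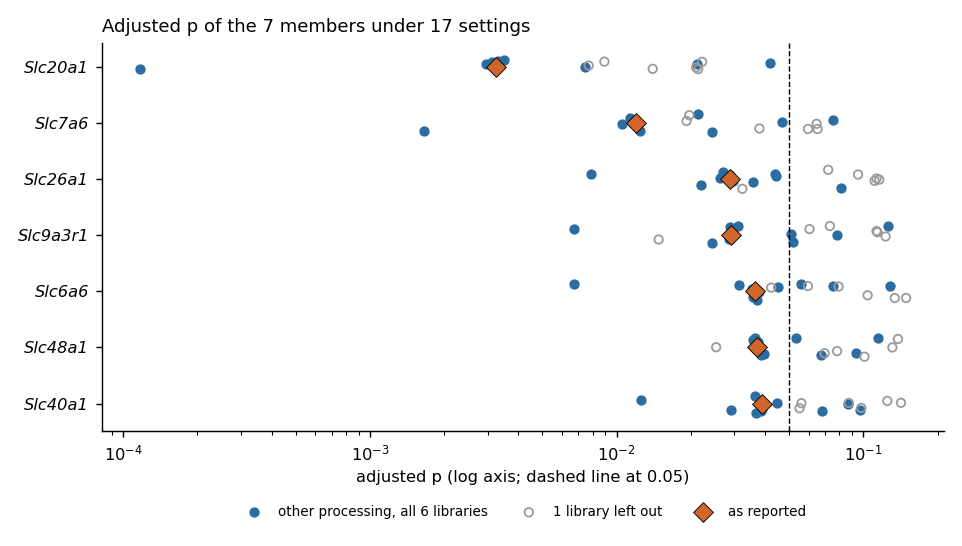
Adjusted p (log axis, dashed line at 0.05) of the 7 members as reported (orange), under the 10 alternatives with all 6 libraries (blue) and under the 6 fits without 1 library (open). All 17 values of Slc20a1 lie left of the line, and the 6 open circles of Slc40a1 lie right of it.

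Genes that work with SLC carriers and SLC-type carriers under other symbols were set beside the members as lists drawn up with earlier results known. Of 15 tested partners and regulators, Atp1b1, the beta subunit of the sodium pump whose gradient many carriers use, was higher, at 93.3, 83.5 and 93.5 FPKM against 104.4, 109.7 and 110.0 FPKM (log2 0.26, SE 0.05, adjusted p = 0.0363). Klf6, a transcription factor, was lower, at 195.1, 190.5 and 203.4 FPKM against 177.3, 172.2 and 172.2 FPKM (log2 -0.17, SE 0.04, adjusted p = 0.0435). The other 13 did not pass. The list thus held 1 higher and 1 lower call among 15 tested, beside 3.23% of all genes tested. Under an unadjusted p of 0.05 were 8 of the 15, beside 17.6% of all genes tested, and voom called 4, beside 5.10% of all genes. The median log2 fold change of the 15 was -0.04. Of 24 tested SLC-type carriers under other symbols none passed in limma on log2 FPKM, beside 3.23% of all genes. Their median log2 fold change was -0.03. Under an unadjusted p of 0.05 were 3 of the 24, beside 17.6% of all genes, and voom called 1, beside 5.10%.

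In the same comparison 3 of 10 epithelial markers passed as higher and 1 as lower. Of the tested leukocyte markers 1 of 5 passed, beside 3.23% of all genes tested for either list. Under an unadjusted p of 0.05 were 5 of the epithelial and 2 of the leukocyte markers, beside 17.6% of all genes. With voom 4 and 1 were called, beside 5.10% of all genes. Of the 10 epithelial markers, the kidney lineage genes Pax2 (34 ± 1.45 and 51.7 ± 2.68 FPKM, log2 0.60, adjusted p = 0.00101), Pax8 (log2 0.39, adjusted p = 0.00844) and Cdh16 (log2 0.27, adjusted p = 0.00935) were higher in the libraries labelled LPSKD, and the keratin Krt18 was lower (log2 -0.15, adjusted p = 0.0319). Of 5 tested leukocyte markers Csf1r was higher (24.4 ± 2.74 and 33.3 ± 0.583 FPKM, log2 0.45, adjusted p = 0.0208). The other 4 did not pass, with log2 fold changes of -0.39 to -0.04, and the median of the 5 was -0.18. The summed level of the 8 listed leukocyte markers, Csf1r included, was 58.2 to 64.8 and 61.4 to 74.8 FPKM. The pan-leukocyte marker Ptprc was at 0.372 to 1.08 FPKM, and Itgam at a mean of 0.0206 FPKM. The 9 mesenchymal markers, summed at 67.4 to 81.7 FPKM and 49.5 to 79.9 FPKM, and the 5 endothelial markers (3 of them tested), at 2.67 to 5.21 FPKM and 3.12 to 5.32 FPKM, gave no call in limma, with 0 of either list under an unadjusted p of 0.05 and 0 called by voom. The part of these shifts in the differences of the members was not tested.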

How the data were processed

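The authors deposited FPKM values, 1 column for each of the 6 libraries, made from poly(A) RNA read as paired ends. The submitters' processing notes name HISAT2 2.0, StringTie 1.3.0 and Bowtie 0.12.2 and the builds mm8 and GRCh38.p13, a human build, without saying which served this table. Of 22442 identifiers 22399 matched a GENCODE M21 symbol (GRCm38). The members, the lists, the classes and the tests were chosen with earlier results of these data known.

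Fragments were recovered as FPKM times gene length times library total. At totals of 24084827 to 25422171, 97.7% of the 16837 genes above 0 gave whole numbers (tolerance 0.0005) when the length was the summed coding sequence, with at most 10 bases added, and the other 382 needed a length found by search. With totals raised by 0.1%, the share that was whole at the exact coding length went from 50.1% to 3.5%. Of the 175 members 172 matched a coding length and 3 a length found by search. Replicates were not duplicates (chi-square per gene 4.14 to 11.3 over 10907 genes), and Pearson correlations between libraries on the log2 scale were 0.983 to 0.992.

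Groups were compared with limma 3.58.1 in R 4.3.3 (lmFit, eBayes with trend, two-sided) on log2(FPKM + 0.1), which understates the fold change of low genes, for the 11723 genes whose FPKM averaged 0.5 or more, with no covariate, with Benjamini-Hochberg adjustment over all of them at 0.05. Errors are SD over 3 libraries or the SE of the fit. A script tested on simulated data ran the same fit. Alternatives were pseudocounts of 1 and 0.01, filters at 1 and 0.1 FPKM and none, quantile normalization, median centring, no trend, the replicate number as a block, each library left out, and voom on the recovered fragments. Same-numbered libraries did not deviate together (correlations -0.043 to -0.004), so the numbers were not taken as pairs.

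The naming rule took Stat3, members under the threshold, the 10 most abundant, the top of each class, the 5 largest changes that did not pass, the 3 genes on each side of the level limit, list genes that passed and tubule carriers of at least 1 FPKM. Slc20a2, Slc4a2, Slc12a4, Slc12a9, Slc23a2, Slc27a1, Slc35e3, Slc39a4, Slc39a3, Slc11a2, Slc39a14, Slc25a37, Slc25a28, Slc25a48, Slc25a10, Slc25a15, Slc25a45, Slc7a1, Slc7a6os, Slc26a2, Slc26a11, Slc5a3, Slc9a8 and Slc9a3r2, and the list genes named without a call, were chosen after their values were seen. Slc4a1ap was named only because it is not a carrier. Exon overlaps and shared stretches of 31 bases were read from GENCODE M21. Python 3.11.15, pandas 2.3.3, numpy 2.4.6 and matplotlib 3.10.9 were used. The 1 gene of family 7 that the rule set aside is not reported here.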

Additional observations from a re-analysis of the deposited data

How the results depend on the processing

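The 25 members with under 100 fragments in at least 1 library have the largest relative counting error, and each group had 3 libraries. Members called, 7 as reported, were 3 without a filter, 2 without the trend and 12 with voom. Members called higher, 6 as reported, were 2 without a filter and 1 without the trend, and members called lower, 1 as reported, were 7 with voom. All tested genes called, 379 as reported, were 140 without the trend and 598 with voom. Without 1 library, members called ranged from 1 to 6, called higher from 0 to 4, called lower from 1 to 2 and all genes called from 158 to 357, and the median log2 fold change of the members, 0.006 as reported, from -0.010 to 0.013.

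Calls of the 7 members were lost as follows when 1 library was left out. Slc7a6 lost its call without replicate 3 labelled LPS or replicates 2 or 3 labelled LPSKD (adjusted p up to 0.0652). Slc26a1 (up to 0.116), Slc9a3r1 (up to 0.123) and Slc6a6 (up to 0.149) lost it without replicates 2 or 3 labelled LPS or any labelled LPSKD, Slc48a1 (up to 0.138) without replicates 1 or 3 labelled LPS or any labelled LPSKD, and Slc40a1 (0.0551 to 0.142) without any 1 of the 6.

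With the replicate number as a block, members called were 3 (2 higher, 1 lower) and all genes called 213. Slc9a3r1, Slc48a1, Slc40a1 and Slc26a1 were no longer called. The libraries share only a number, so this is not a paired analysis.

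Over 60 named genes and 16 settings, 846 of 957 values kept direction and side, 80 lost and 7 gained the threshold, and 24 changed sign, none past the threshold in either fit. Under quantile normalization the sign changed for Slc4a11 (-0.01), Slc7a5 (-0.03) and Slc39a7 (-0.02). Without 1 library the log2 fold change of Slc4a11 ranged from -0.02 to 0.04, Slc7a5 from -0.02 to 0.04, Slc39a7 from -0.03 to 0.03, Slc44a2 from -0.01 to 0.05, Slc16a1 from -0.02 to 0.03, Slc25a3 from -0.04 to 0.01, Slc2a9 from -0.07 to 0.30, Slc5a8 from -0.43 to 0.05, Slc11a2 from -0.01 to 0.04, Slc25a37 from -0.01 to 0.04, Slc7a1 from -0.05 to 0.01, Slc26a2 from -0.02 to 0.14 and Stat3 from -0.06 to 0.04. The cause of each was not tested.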
